A study of Mus musculus with 46 samples.

Results

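Mt1 and Mt2 encode the metallothioneins MT1 and MT2, and their RNA was followed across all 33 RNA libraries of a study of mouse embryos without Rbbp5. They are 2 of the 7182 genes used from the deposited expression table. The pair was chosen by its own FPKM values in these libraries (fragment counts divided by transcript length and library total), so the levels and differences of Mt1 and Mt2 are given as a description, with no test. Rbbp5 is a core subunit of the MLL and SET1 histone methyltransferase complexes, which act on lysine 4 of histone H3. Wild-type (WT) and Rbbp5 knockout (KO) embryos gave 7 and 7 libraries of single inner cell masses (ICM) at embryonic day (E) 3.5, and 3 and 3 libraries of single epiblasts at E5.5. At E4.5 the libraries are single cells, from the epiblast (7 WT, 3 KO) and from the primitive endoderm, PE (1 WT, 2 KO). Knockouts were made in zygotes, either wild-type zygotes given Cas9 mRNA with guide RNAs or Rbbp5 flox/flox zygotes given Cre mRNA, and the labels do not say which route was used for a given library. Blastocysts came from culture in KSOM medium, ICMs were isolated by immunosurgery, and E5.5 epiblasts were dissected by hand from embryos recovered from the uterus. Since Rbbp5 was not analysed here, its own RNA offers no check of which embryos lacked it.

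Metallothioneins are small proteins rich in cysteine that bind zinc and copper and can trap cadmium. Their genes are switched on by metals through the transcription factor MTF1, which binds short metal response elements (MREs) in their promoters, and also by oxidative stress and glucocorticoids. In the mouse Mt1 and Mt2 are expressed in many tissues and lie next to each other, while Mt3 and Mt4 are known mainly from brain and from stratified epithelium. In early mouse development, high metallothionein RNA is known from the visceral endoderm, the cell layer around the epiblast, and from the maternal decidua.

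The 4 genes lie in a row on chromosome 8 of GRCm38, all on the plus strand, in the order Mt4, Mt3, Mt2, Mt1. Mt2 occupies chr8:94172618-94173567 and Mt1 chr8:94178883-94180327, with 5315 bases between them. Stretches at the start of each gene are shown because they carry the elements through which metals are known to act, with matches to the core MRE, TGCACNC or TGCGCNC on either strand, in capitals. The sequences are from RefSeq on GRCm38.p6, plus strand, 5′ to 3′. For Mt1 the promoter table counts from a start at 94179089, which lies 206 bases inside the span listed for the gene, so 2 stretches of 30 bases around the matches are given. For Mt2 both starts are the same, and the 250 bases before it are given.
Mt1, positions -35 to -6, chr8:94179054-94179083: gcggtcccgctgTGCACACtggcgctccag
Mt1, positions 1 to 30, chr8:94179089-94179118: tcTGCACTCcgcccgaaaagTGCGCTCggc
Mt2, positions -250 to -1, chr8:94172368-94172617: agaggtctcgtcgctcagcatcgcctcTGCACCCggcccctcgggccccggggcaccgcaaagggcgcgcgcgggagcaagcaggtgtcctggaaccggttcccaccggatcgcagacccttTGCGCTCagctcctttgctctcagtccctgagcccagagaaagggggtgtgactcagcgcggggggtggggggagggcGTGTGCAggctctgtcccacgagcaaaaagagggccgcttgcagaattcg
In a window of 300 bases, which adds 50 bases after the start used, Mt1 had 3 MRE matches, at positions -23 to -17, 3 to 9 and 21 to 27 from that start. Mt2 had 4, at -223 to -217, -128 to -122, -50 to -44 and 5 to 11, the last 2 on the minus strand. Of 32841 mouse promoters of this length, 25.7% held at least 1 match, 1.97% held 3 or more and 0.518% held 4 or more. Mt3 and Mt4 held 1 match each. Slc30a1, which encodes the zinc exporter ZnT1 and is a known MTF1 target, held 2. The antioxidant response element, TGACNNNGC on either strand, was found once in the Mt2 window, at -79 to -71, and not in the Mt1 window. Of all promoters, 12.4% held it. These matches describe the letters of the window only. The starts listed for Mt1 differ, so its window may not cover the same part of the promoter as that of Mt2. Whether its matches after the start lie in the transcript is not known.

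Before the results, 3 features of the libraries bear on them. The 3 KO libraries labelled E5.5 epiblast went against that label. Their trophectoderm markers, such as the keratin gene Krt8, summed to 2323 to 4115 FPKM over 13 genes against 98.6 to 149 in WT, and their epiblast markers summed to 472 to 846 FPKM over 14 genes against 1781 to 1937. Since all 3 were affected, no KO value at E5.5 can be given without them. In the ICM, KO libraries 1, 4 and 6 had 3628, 3642 and 3883 genes at 1 FPKM or more, where the other KO libraries had 4522 to 5136 and the WT libraries 5110 to 5718. The levels of Mt1 and Mt2 in KO ICM are therefore given with and without these 3. Other values from KO ICM include them unless stated. The 2 KO PE cells and the WT PE cell carried PE markers at 962 to 3733 summed FPKM, against 3.66 to 80.4 in the 10 epiblast cells, as their labels say. Depth behind the FPKM of embryo libraries is unknown, and the columns of single cells may have been scaled separately, so levels were not tested between cells and embryos.

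Of the 7182 genes used, Mt1 and Mt2 were among the most abundant in the E3.5 ICM and lower at E5.5. In KO embryos their mean FPKM was above WT at both stages. Ranks and shares below refer to these genes only. Mt1 ranked 2 to 13 by FPKM within each WT ICM library and Mt2 ranked 11 to 48. Both together made up 0.931% to 2.75% of the FPKM summed over these genes in a WT ICM library and 0.116% to 0.228% in a WT E5.5 library. The corresponding shares in KO libraries were 1.09% to 6.39% in the ICM and 0.334% to 0.512% at E5.5.

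**Figure D1:**
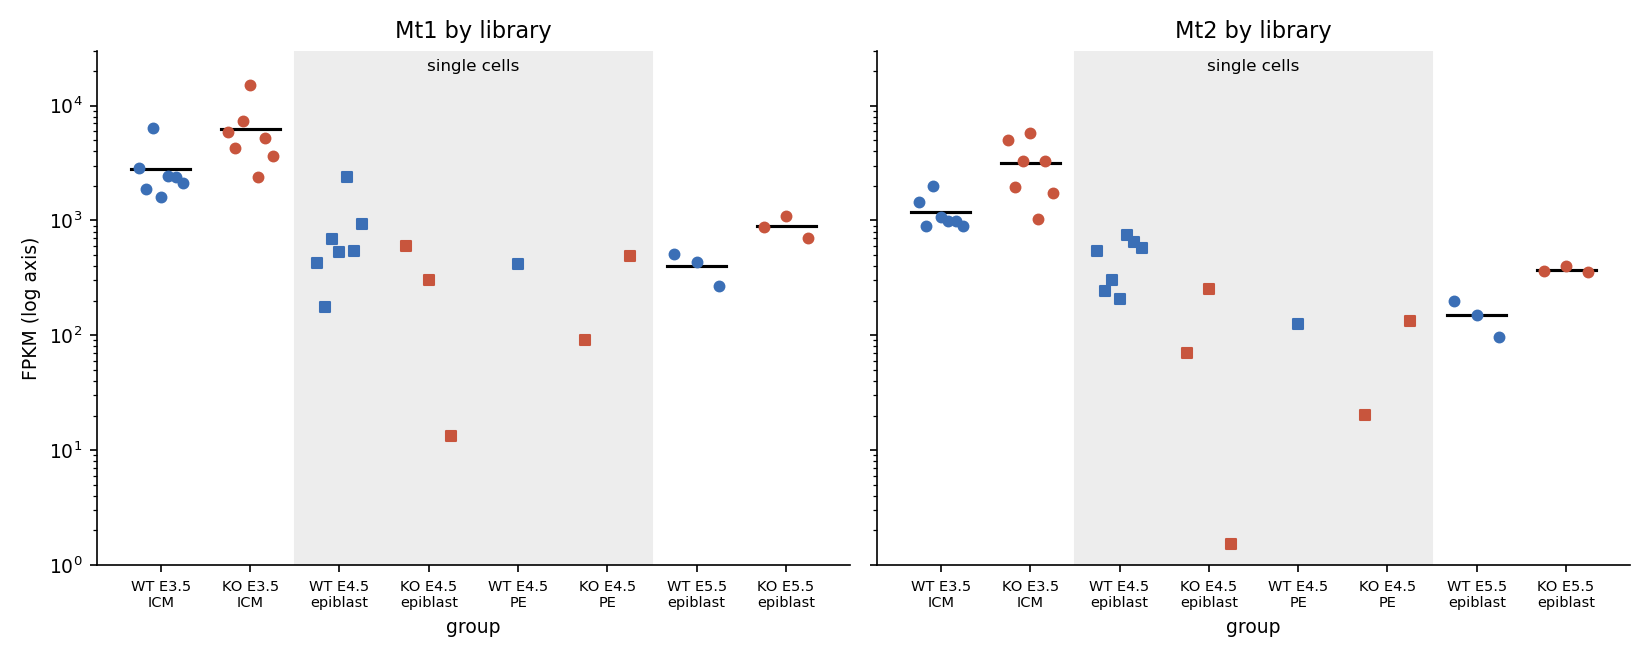
FPKM of Mt1 (left) and Mt2 (right) on a log axis in each of the 33 RNA libraries by group, WT in blue and KO in red, circles for single embryos, squares for single cells on a grey ground, bars for the means of embryo groups. In both panels every E5.5 library lies below every ICM library of its genotype, and KO epiblast cell 3 lies lowest. WT epiblast cell 5, at 2409 FPKM of Mt1, reaches into the range of the ICM libraries.

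In WT ICM, Mt1 stood at 2831, 1865, 6377, 1605, 2426, 2391 and 2101 FPKM in libraries 1 to 7. All but library 3 lay between 1605 and 2831. The mean was 2799 ± 1628 FPKM (SD, n = 7), with a median of 2391. In KO ICM, Mt1 stood at 5888, 4251, 7372, 15148, 2383, 5180.3 and 3619 FPKM, a mean of 6263 ± 4235 (SD, n = 7). Of the 7 KO libraries 6 lay above the WT mean, but only libraries 3 and 4 lay above every WT library, so the groups overlapped. The ratio of the means was 2.24. On the log2(FPKM + 1) scale the difference was 1.08, where the median of all 5443 genes tested was -0.65.

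Mt2 differed somewhat more between the genotypes. Its WT values in libraries 1 to 7 were 1433, 899.9, 2009.6, 1072, 981, 979.9 and 891 FPKM, a mean of 1181 ± 409 (SD, n = 7). Its KO values were 5061, 1939, 3275, 5821, 1020.0, 3312 and 1728 FPKM, a mean of 3165 ± 1773 (SD, n = 7). Library 3 was the highest WT library for both genes, and KO libraries 1, 3, 4 and 6 exceeded it for Mt2. The ratio of the means was 2.68 and the log2 difference 1.26. Among all 5443 genes, ordered by the gain in mean FPKM, Mt1 came in place 1 and Mt2 in place 4, while by log2 difference they came in places 60 and 23.

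The gain depended in size on the KO libraries with few detected genes. In KO libraries 2, 3, 5 and 7, Mt1 averaged 4406 ± 2124 FPKM (SD, n = 4), 1.57 times the WT mean, and Mt2 averaged 1990.5 ± 942 (SD, n = 4), 1.69 times. In KO libraries 1, 4 and 6 the means were 8739 ± 5562 FPKM for Mt1 and 4731 ± 1287 for Mt2 (SD, n = 3), 3.12 and 4.01 times WT. All 3 of these libraries lay above every WT library for Mt2, and for Mt1 only library 4 did. KO library 5, with the most detected genes of its group (5136), had Mt1 and Mt2 below the WT mean. The part of detection in the differences was not tested.

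**Figure D2:**
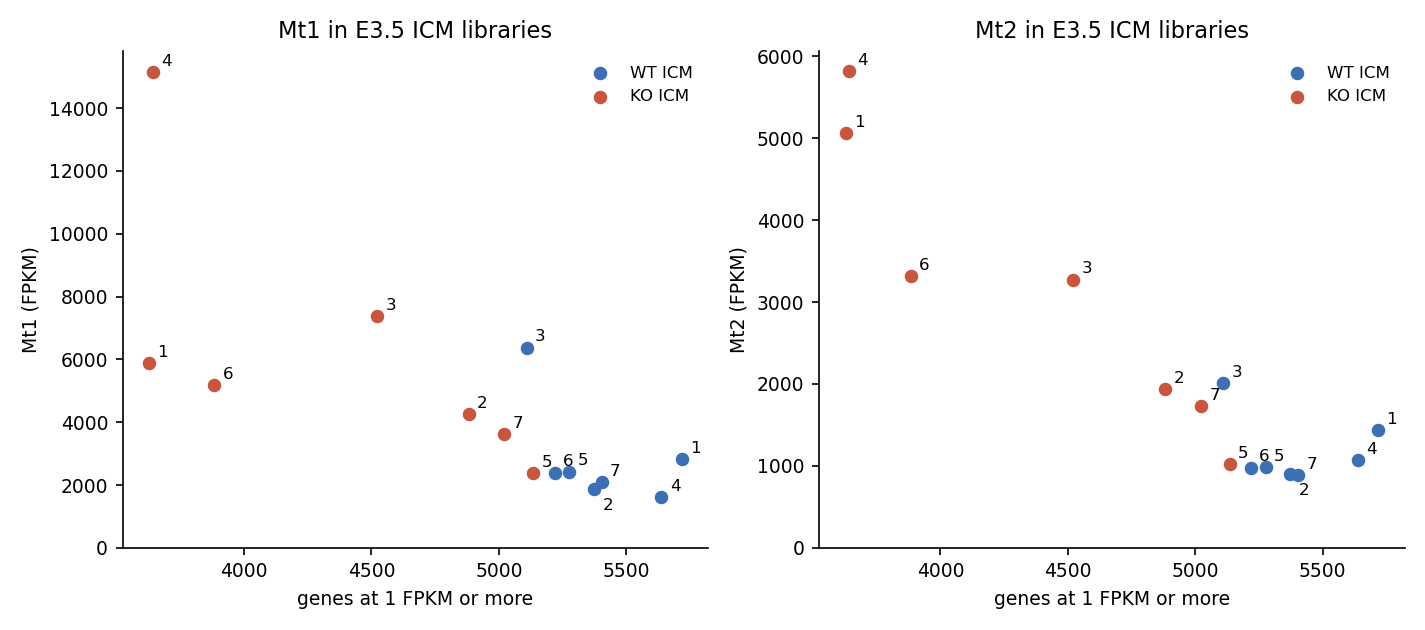
Mt1 (left) and Mt2 (right) FPKM in each E3.5 ICM library against its number of genes at 1 FPKM or more, WT in blue and KO in red, with library numbers. KO libraries 1, 4 and 6, with 3628 to 3883 genes, hold the 3 highest Mt2 values, and WT library 3, with 5110 genes, is the highest WT library for both genes.

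Short and abundant RNAs as classes also stood above the median gene in KO ICM. Genes with a span of up to 2 kb, to which Mt1 (1445 bases) and Mt2 (950 bases) belong, had a median log2 difference of 0.15 (n = 106), against -0.51 for genes of 2 to 5 kb and -0.66 for those over 20 kb. The 91 genes at 500 FPKM or more in both genotypes had a median of 0.54, and 18 of them were over 2-fold higher. Against that median, Mt1 and Mt2 at 1.08 and 1.26 stood higher, but within the span class the 95th percentile was 1.47, above both. At E5.5 the shortest class had a median of -0.19. Its 95th percentile was 2.66, above Mt1 and Mt2 at 1.17 and 1.38. The 62 genes at 500 FPKM or more in both genotypes at E5.5 had a median of -0.14. Mt1 and Mt2, with WT means of 402 and 149 FPKM, were not among them. The part of span and abundance in the differences was not tested.

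Trophectoderm markers tended lower in KO ICM, while blood markers had no single direction beside the high Mt1 values. Trophectoderm markers had sums of 155 to 1191 FPKM in the WT group and 62.9 to 266 in the KO group of ICMs. Of 9 tested, 5 were called lower in KO, where 24.9% of all genes were, and 0 higher, where 3.44% were. Those called lower included Gata3, Tead4, Krt8 and Cldn4. The lowest sums, 62.9 and 93.3, were in KO libraries 4 and 1, which had the highest Mt2 values. WT library 1 held the highest sum, 1191, with Mt1 at 2831 FPKM, and WT library 3, with Mt1 at 6377, held 354. Markers of blood and maternal tissue, of which 5 of 18 listed genes were in the table, had sums of 4.64 to 21.5 FPKM in the WT and 1.83 to 48.1 in the KO libraries, with Hba-x at 0 in all. The highest of these sums, 48.1, was in KO library 4, which also had the highest Mt1, and the lowest, 1.83, was in KO library 3, which had the next highest. Their part in the Mt1 and Mt2 values was not tested.

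At E5.5 the genotypes did not overlap for either gene. Mt1 stood at 508, 431 and 269 FPKM in WT and at 879, 1093 and 701 in KO. The means were 402 ± 122 and 891 ± 196 FPKM (SD, n = 3 each), a ratio of 2.21 and a log2 difference of 1.17. Mt2 stood at 199.7, 151 and 96.1 FPKM in WT and at 363, 401 and 355 in KO, with means of 149 ± 51.9 and 373 ± 24.7 (SD, n = 3 each), a ratio of 2.5 and a log2 difference of 1.38. The WT libraries kept the same order for both genes, library 1 highest and library 3 lowest. Every KO library above every WT library was also seen for 22.6% of the 5956 genes tested at E5.5, and by log2 difference Mt1 and Mt2 came in places 530 and 401.

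In these KO libraries trophectoderm and epiblast markers also differed from WT. KO library 1 held the highest trophectoderm sum, 4115 FPKM, and library 2, with the lowest, 2323, held the highest Mt1, 1093 FPKM. All 12 trophectoderm markers tested were called higher in KO, where 15.6% of all genes were, with a median log2 change of 4.82, and 8 of 12 epiblast markers were called lower, where 18.5% of all genes were. Pou5f1, a core pluripotency factor, stood at 4.57 to 19.9 FPKM in KO and 103 to 190.4 in WT. PE markers summed to 29.8 to 39.6 against 23.4 to 31.2 FPKM, and blood and maternal markers to 4.34 to 10.6 against 2.45 to 6.88. Of 4 PE markers tested, 2 were called higher and 1 lower, where 15.6% and 18.5% of all genes were. Of 2 blood and maternal markers tested, 1 was called higher and 0 lower. Of 15 listed markers of visceral endoderm, 3 were in the table and only Amot was tested. It was called higher in KO, as 15.6% of all genes were (log2 change 1.73, limma adjusted p = 0.0300). The part of these cell types in the difference of Mt1 and Mt2 was not tested, and in bulk libraries a change in the number of cells of a type and in RNA per cell cannot be told apart.

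**Figure D3:**
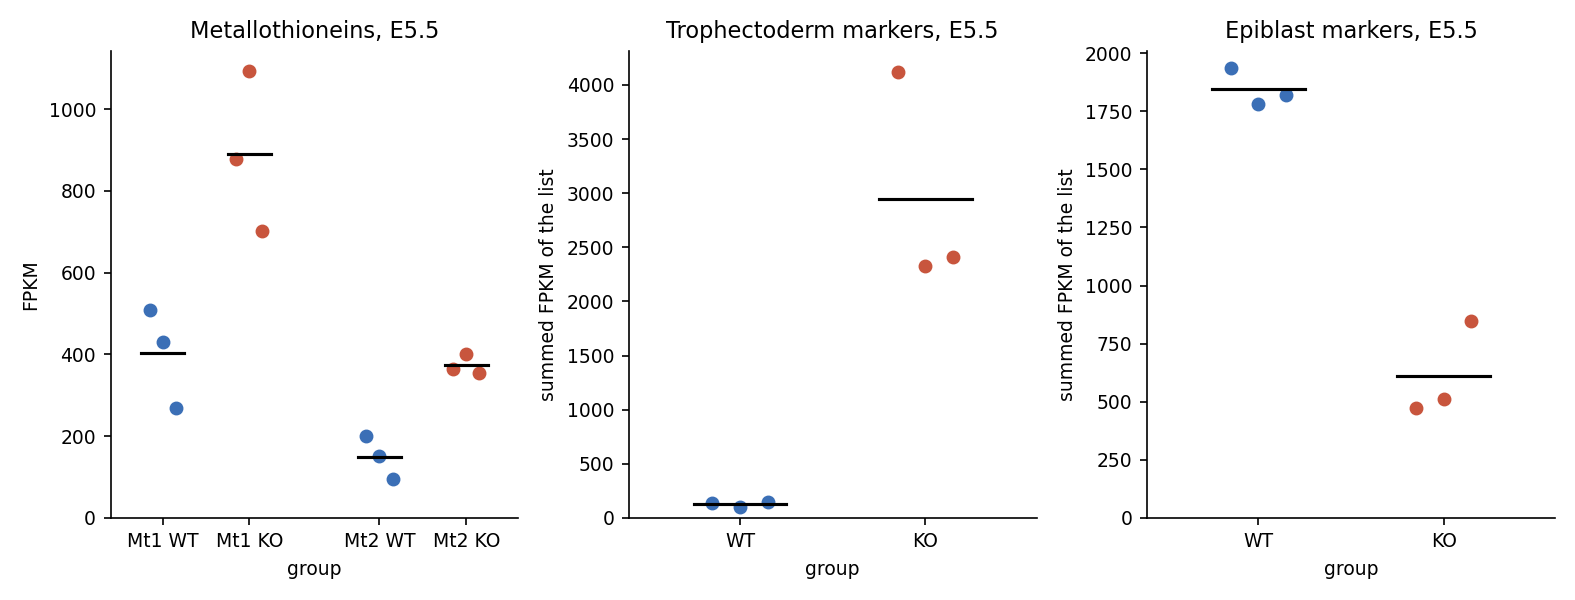
E5.5 libraries by genotype, WT in blue and KO in red, with bars for means. The left panel gives Mt1 and Mt2 FPKM, the middle panel the summed FPKM of 13 trophectoderm markers and the right panel that of 14 epiblast markers. All 3 KO libraries lie above all 3 WT libraries for Mt1, Mt2 and trophectoderm markers and below them for epiblast markers.

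The fall from E3.5 to E5.5 was larger than the difference between genotypes. In WT embryos Mt1 was 6.96-fold lower at E5.5, a log2 difference of -2.70, and Mt2 was 7.92-fold lower, a log2 difference of -2.98. Every E5.5 library lay below every ICM library for both genes, as for 15.9% of the 6022 genes tested. Mt1 lost more mean FPKM than any other of these genes and Mt2 came in place 13. Between KO groups, Mt1 was 7.03-fold and Mt2 8.48-fold lower at E5.5, again with no overlap, as for 7.01% of 5604 genes. These folds include KO ICM 1, 4 and 6. Without them the KO ICM means were 4406 FPKM for Mt1 and 1990 for Mt2, against 891 and 373 in KO E5.5. The KO effect at E5.5 minus that in the ICM was 0.09 for Mt1 and 0.12 for Mt2 on the log2 scale. The median of all genes was 0.56. For Mt1 and Mt2 the difference was 0.56 and 1.05 after quantile normalization and -0.50 and -0.48 after median ratio scaling. It was not computed without KO ICM 1, 4 and 6. Without them the KO effect in the ICM was 0.68 and 0.69, against 1.17 and 1.38 at E5.5. Stage cannot be told apart from culture, immunosurgery and dissection, which differed with it.

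Single E4.5 cells showed a wide spread within each label. In the 7 WT epiblast cells, Mt1 stood at 427, 176, 690.1, 528, 2409, 543 and 929 FPKM, and Mt2 at 546, 243, 300.5, 205, 746, 644 and 571. Cell 5 was the highest for both genes. In the 3 KO epiblast cells, Mt1 stood at 599, 305 and 13.3 FPKM and Mt2 at 69.5, 252 and 1.53. KO cell 3 had 3056 genes at 1 FPKM or more, close to the 3026 of KO cell 1, while Mt1 ranked 2462 and Mt2 3014 in it by FPKM. The WT PE cell had 417 FPKM of Mt1 and 125 of Mt2, and the 2 KO PE cells had 90.2 and 485 of Mt1 and 20.4 and 133 of Mt2. Which embryo a cell came from is not labelled. Each group was therefore taken as 1 sample, and no test was made between genotypes or between epiblast and PE.

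Mt1 exceeded Mt2 in every embryo library. Since FPKM is scaled by transcript length, the ratio of Mt1 to Mt2 compares the level of the 2 RNAs within a library. It was 2.28 ± 0.52 in WT ICM, 2.03 ± 0.49 in KO ICM (SD, n = 7 each), 2.73 ± 0.16 in WT E5.5 and 2.37 ± 0.38 in KO E5.5 (SD, n = 3 each), and the ranges overlapped between genotypes at both stages. The lowest ICM ratios were in KO library 1, at 1.16, where Mt2 was nearly as high as Mt1, and in WT library 4, at 1.5. In WT epiblast cells 1, 2 and 6 Mt2 exceeded Mt1, and over the 7 cells the ratio ran from 0.722 to 3.23, while in KO epiblast cells 1 and 3 it was 8.61 and 8.75.

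**Figure D4:**
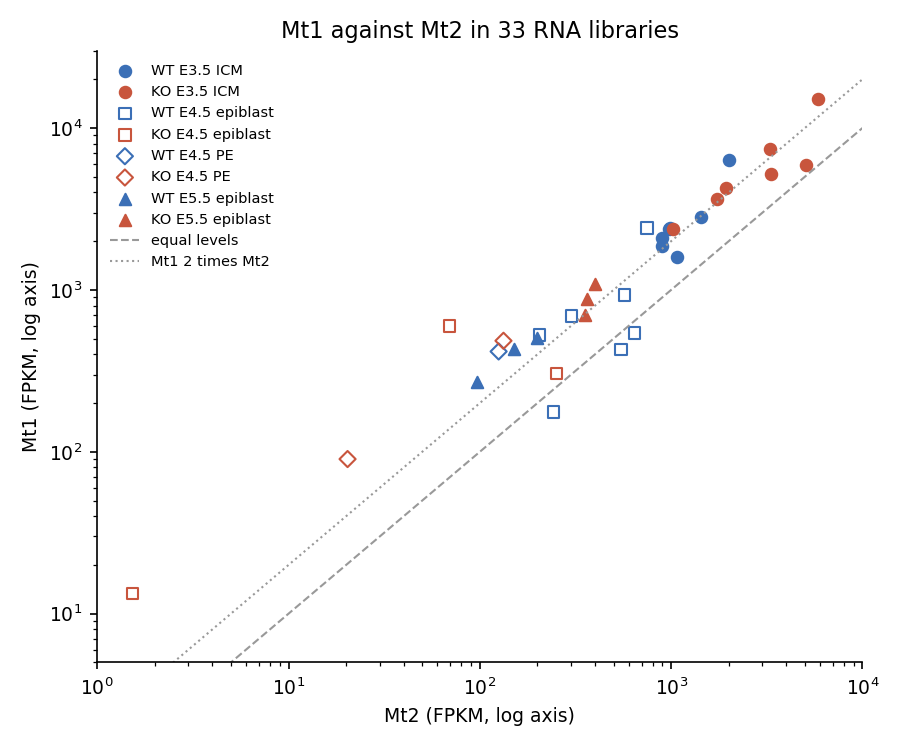
Mt1 FPKM against Mt2 FPKM, both on log axes, in the 33 RNA libraries, WT in blue and KO in red, filled symbols for single embryos and open symbols for single cells. The lines mark equal levels and Mt1 at 2 times Mt2. All embryo libraries lie above the line of equal levels, with ratios of 1.16 to 3.17, and 3 WT epiblast cells lie under the line of equal levels.

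Across the 7 WT ICM libraries the log2 values of the 2 genes had a Pearson r of 0.88 and a Spearman rho of 0.61. There r was 0.86 without the 2 libraries whose Mt1 lay farthest from the group's median of Mt1. In the 7 KO ICM libraries r was 0.89, rho 0.89, and r without the 2 farthest by Mt1 was 0.78. In the 7 WT epiblast cells r was 0.62 and rho 0.68, and r fell to 0.08 without the 2 cells farthest by Mt1. Points of a group share a table and, in KO ICM, the spread in detected genes.

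Over the 20 embryo libraries 5917 genes passed the filter. Predicted genes (Gm, Rik and LOC names), Y-linked genes and Xist were left out of the ranking by likeness. Among the rest, the gene most like each of the pair in log2(FPKM + 1) was the other one, with r = 0.98. After Mt2, those most like Mt1 were Dad1, a subunit of the oligosaccharyltransferase, at 0.96, Churc1, a zinc-binding protein, at 0.95, and Cox17, the copper chaperone of cytochrome c oxidase, and Pam16, part of the mitochondrial import motor, at 0.94. For Mt2 they were Cox17 at 0.96, Churc1, Dad1 and Cox8a, a cytochrome c oxidase subunit, at 0.95. With each group's mean subtracted, r between Mt1 and Mt2 was 0.87. Among the next genes were then Dad1 (0.77), Ndufb7 (0.74), Nedd8 (0.73) and Churc1 (0.72) for Mt1, and Tmsb10 (0.80), Dnajc19 (0.77) and Cks2 (0.75) for Mt2. These correlations rest on the same libraries, whose detection and composition differ, and are given as a description.

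Mt3, which is no member of the pair, went the other way with stage. It was listed at 0 in all KO ICM libraries and all E4.5 cells, and in WT ICM it was at 8.56 FPKM in library 5 and at most 0.597 in the others. In WT E5.5 libraries it stood at 10.3, 11.4 and 8.80 FPKM, higher than in WT ICM by 2.85 on the log2 scale (limma, adjusted p = 0.00117, 37.3% of all genes called higher). In KO E5.5 libraries it stood at 0.664, 3.59 and 4.82 FPKM, below every WT library, a log2 change of -1.65 (limma, adjusted p = 0.0161). That call ended without WT library 1 or 2 (adjusted p = 0.0628 and 0.0630). Mt4 was not analysed here.

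Of 35 annotated genes within 500 kb of Mt1, 6 were in the table, including Mt1, Mt2 and Mt3. Ogfod1, a prolyl hydroxylase of the ribosome, had a log2 change of -1.08 in KO ICM (limma, adjusted p = 0.0270) and of 1.07 in KO E5.5 (adjusted p = 0.0206), opposite directions where Mt1 and Mt2 were higher in both. The ICM call ended after quantile normalization (adjusted p = 0.687), after median ratio scaling (0.156), without KO libraries 1, 4 and 6 (0.105), without WT library 7 (0.0604), and without KO library 3 or 4 (0.0501 and 0.0518). The E5.5 call ended without WT library 1 (adjusted p = 0.0505), WT library 3 (0.0832) or KO library 2 (0.0552). Nudt21, a factor of RNA cleavage and polyadenylation, had log2 changes of -0.50 and -0.45 (limma, adjusted p = 0.0812 and 0.0875), which passed without KO ICM library 5 (0.0274) and without KO E5.5 library 2 (0.0253). Bbs2, a part of the ciliary BBSome, had changes of -0.96 and -0.15 (limma, adjusted p = 0.347 and 0.754). From E3.5 to E5.5 in WT, Bbs2 fell by 2.40 (limma, adjusted p = 0.00107).

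The regulator and the classical co-target of the metallothioneins were measured beside them. Mtf1 was at 32.5 ± 8.53 FPKM in WT ICM and 24.6 ± 13.5 in KO ICM (SD, n = 7 each), and its log2 change of -0.58 did not pass the test (limma, adjusted p = 0.241). At E5.5 it was at 8.47 ± 3.0 in WT and 9.5 ± 1.01 in KO (SD, n = 3 each), a change of 0.19 (limma, adjusted p = 0.627). Between the WT stages Mtf1 fell by 1.83 (limma, adjusted p = 8.92e-05), the same direction as Mt1 and Mt2. Slc30a1 was low, at 1.22 ± 0.44 FPKM in WT ICM and 2.06 ± 1.16 in KO ICM (SD, n = 7 each), a change of 0.41 that did not pass (limma, adjusted p = 0.317) and did after quantile normalization (1.23, adjusted p = 0.0115). At E5.5 its mean was below the filter of 1 FPKM.

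Among genes that handle zinc, copper and iron, 44 of 55 listed were in the table. In KO ICM, 4 of 38 tested rose, where 3.44% of all genes did, and 8 fell, where 24.9% did, with a median log2 change of -0.74 against -0.65 for all genes. The 4 that rose were Atox1, the copper chaperone of the secretory pathway (1145 ± 349 against 498 ± 115 FPKM, log2 change 1.17, limma adjusted p = 0.00238), Cox17, the ferritin heavy chain gene Fth1 and Bola2, a partner in iron-sulfur cluster handling. Those that fell included the zinc importer Slc39a4 (28.2 ± 21.3 against 90.6 ± 37.4 FPKM, -2.22, adjusted p = 0.0163) and the copper importer Slc31a1 (4.79 ± 4.68 against 14.95 ± 2.42 FPKM, -1.87, adjusted p = 0.00815). Among the 16 zinc genes tested 4 fell (Slc39a4, Slc39a7, Slc39a11 and Slc39a14), a share close to the 24.9% of all genes. Without KO libraries 1, 4 and 6, 2 genes of the list were called in place of 12, 1 in each direction, and the calls of Cox17, Fth1, Bola2, Slc39a4 and Slc31a1 ended. The split of 4 higher and 8 lower became 4 and 3 after quantile normalization, where Cox17 and Fth1 ended (adjusted p = 0.0688 and 0.741), and 6 and 3 after median ratio scaling, where Slc39a4 did (0.0508).

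At E5.5, 12 of 40 tested genes of metal handling rose in KO, where 15.6% of all genes did, and 2 fell, where 18.5% did. Those that rose included Tfrc, the transferrin receptor (79.8 ± 11.2 against 24.6 ± 4.28 FPKM, log2 change 1.66, limma adjusted p = 0.000316), Hmox1, heme oxygenase (75.6 ± 10.2 against 34.3 ± 13.0, 1.17, adjusted p = 0.00609), the zinc importer Slc39a1 (78.5 ± 34.0 against 25.9 ± 3.19, 1.49, adjusted p = 0.00308) and Slc31a1 (25.8 ± 1.17 against 10.8 ± 2.5, 1.20, adjusted p = 0.00283). Slc39a7, a zinc transporter of the endoplasmic reticulum, fell (19.1 ± 1.91 against 47.0 ± 5.24, -1.26, adjusted p = 0.00109), as did Slc39a4. These changes were measured in the same KO libraries that carried trophectoderm markers, and their part was not tested. The calls numbered 7 without WT library 1, 8 without WT library 2 or 3 and 9 without KO library 1, against 14 with all libraries.

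**Figure D5:**
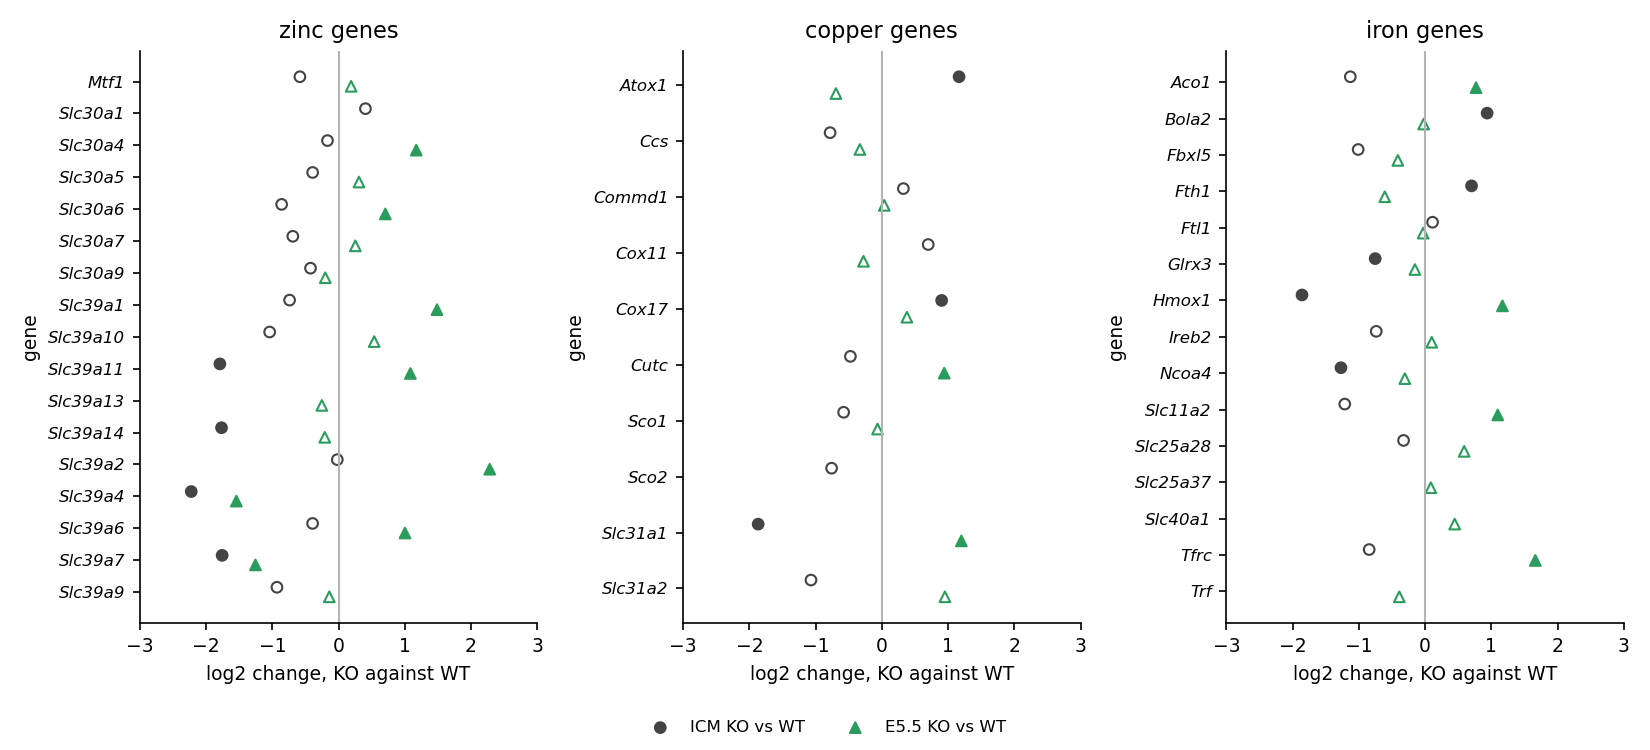
Log2 change of each tested gene of zinc, copper and iron handling in KO against WT, black circles for the E3.5 ICM and green triangles for E5.5, filled where the gene was called at an adjusted p under 0.05. Slc31a1, Slc39a11 and Hmox1 are called lower in the ICM and higher at E5.5, and Slc39a4 and Slc39a7 are called lower at both.

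The KO effect differed between the stages for 8 of 39 genes of metal handling, 6 with a higher value at E5.5 (10.6% of all genes) and 2 with a lower one (3.38%). Slc31a1 had the difference 3.07 (limma, adjusted p = 0.00713) and Atox1 -1.86 (limma, adjusted p = 0.0025). Without KO E5.5 library 1 the list had 3 such calls, and without WT E5.5 library 1 or 3 it had 4. Between the WT stages 10 of 40 rose (background 37.3%) and 10 fell (18.9%), or 7 and 12 after quantile normalization or median ratio scaling. Slc39a4 fell by 3.12 (limma, adjusted p = 5.99e-06) and Cox17 by 1.68 (adjusted p = 5.64e-06), as Mt1 and Mt2 did, while Slc39a7 rose by 2.98 (adjusted p = 0.000175).

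Of the thiol and antioxidant genes, 3 of 22 rose in KO ICM (background 3.44%) and 2 fell (24.9%), or 7 and 2 after median ratio scaling. Thioredoxin, Txn1 (1442 ± 343 against 754 ± 179 FPKM, log2 change 0.93, limma adjusted p = 0.00326), and the superoxide dismutase Sod1 (2758 ± 625.2 against 1584 ± 751, 0.92, adjusted p = 0.0172) rose, as did Prdx1, and glutathione synthetase, Gss, fell (13.8 ± 8.14 against 61.0 ± 33.9, -2.16, adjusted p = 0.00383), as did Ggt1. The calls of Txn1 and Sod1 ended after quantile normalization (adjusted p = 0.0576 and 0.416), and that of Sod1 also without KO libraries 1, 4 and 6 (adjusted p = 0.141). At E5.5, 5 of 22 rose in KO (background 15.6%), which were Sod2, Gss, Ggt1, Glrx and Txn2, and 9 fell (18.5%). The mitochondrial Sod2 rose (74.1 ± 21.5 against 27.7 ± 2.54 FPKM, 1.35, limma adjusted p = 0.00164), and the peroxiredoxin Prdx2 fell (243 ± 32.1 against 517 ± 59.5, -1.09, adjusted p = 0.000813). These calls numbered 7 without WT library 1 and 8 without WT library 3, against 14. Between the WT stages 5 of 23 rose (background 37.3%), which were Gclc, Txnrd1, Prdx2, Gsr and Nfe2l2, and 7 fell (18.9%), and Sod2 fell by 2.49 (limma, adjusted p = 4.15e-07).

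Heat shock and glucocorticoid genes respond to other known inducers of Mt1 and Mt2, and 7 of 24 and 4 of 8 listed were in the table. In KO ICM, 2 of 7 heat shock genes tested fell, Bag3 and Hsf1, and 1 of 3 glucocorticoid genes fell, Sgk1, where 24.9% of all genes fell and 3.44% rose. These 3 calls ended without KO libraries 1, 4 and 6, after quantile normalization and after median ratio scaling. Those of Hsf1 and Sgk1 also ended with a pseudocount of 0.1, with no filter, with the replicate block (adjusted p = 0.0531 and 0.0566) and without most single libraries, and that of Bag3 without WT library 1 or 4. At E5.5, 2 of 6 heat shock genes fell, Dnaja1 and Hsf1, where 18.5% of all genes fell and 15.6% rose. Of 4 glucocorticoid genes, Klf9 rose (1.28, limma adjusted p = 0.00600) and 2 fell, Tsc22d3 and the kinase gene Sgk1 (-2.10, limma adjusted p = 0.000367 for Sgk1).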

How the data were processed

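RNA libraries were made by SMART-seq2 and Tn5, per the labels' protocols. The deposited values are FPKM, made by the authors, in a table of 7186 lines, of which 4 with a repeated name were left out. The submitters' processing notes name STAR 2.7.3, among other tools, and the mm10 build, and no source used here names the program that made the FPKM. Other assays of the series were not used here. Groups of embryo libraries were tested with limma 3.58.1 (R 4.3.3; empirical Bayes with trend and robust options, two-sided) after log2(FPKM + 1), keeping genes whose mean was 1 FPKM or more, with Benjamini-Hochberg adjustment over all genes and calls under 0.05. The pseudocount understates changes of low genes. Replicates are separate embryos, per the labels. The code was tested on simulated data. Members and lists were chosen with earlier results of these data known. Named were Mt3, Mt4, Mtf1, Slc30a1, genes within 500 kb, the 5 genes most like each member, and per list and comparison up to 4 called genes that reached 10 FPKM on average in the higher group, smallest p first, of which those that carry a comparison are printed. Some genes and marker sums that these rules name are not reported here. Genes named beside a count of 5 or fewer calls but outside this rule were chosen after their values were seen. In single epiblast cells low FPKM values shared a step with WT cell 4, which gave relative depths of 0.570 to 1.40 against it. Columns of embryos and of PE cells, compared with that cell only, showed no shared step. Promoters are RefSeq sequences of GRCm38.p6. Tried as alternatives were a pseudocount of 0.1 or 5, a filter of 0 or 5 FPKM, scaling by quantile normalization or by the median ratio, a replicate block, and leaving out each library. For KO against WT ICM only, leaving out KO ICM 1, 4 and 6 was also tried.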

Additional observations from a re-analysis of the deposited data

Results flagged for a closer look

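Among 81 groups of 7 libraries or cells that were examined, 9 had a single library apart from the others, by a gap to its nearest neighbour of more than 0.568 of the range. Chance gives such a gap in about 1 in 20 groups of normally distributed values, which raw FPKM need not be, so for Mt1 the gaps only describe the spread. Mt1 had 3 of them: WT ICM 3 stood at 6377 FPKM with the next at 2831, KO ICM 4 at 15148 with the next at 7372, and WT epiblast cell 5 at 2409 with the next at 929. Mt2 was also highest in these 3, but its gaps did not reach the limit. Without KO ICM 4 the log2 difference of Mt1 between KO and WT ICM was 0.83, and without WT ICM 3 it was 1.30.

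Mt3 stood at 8.56 FPKM in WT ICM 5 with the next at 0.597. The other 5 values were in WT ICM and belong to listed genes: Sgk1 at 118.9 FPKM in library 1, Commd1 at 264 in library 2, Ireb2 at 2.05 in library 3, which was low, and Slc11a2 at 37.0 and Sod2 at 247 in library 6.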

How the results depend on the processing

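Mt1 and Mt2 kept the sign of the KO against WT differences and of the WT stage difference in every alternative run. The log2 difference of KO against WT ICM ran from 0.68 to 1.65 for Mt1 and from 0.60 to 1.83 for Mt2 over 22 alternatives, that at E5.5 from 0.90 to 1.36 and from 1.10 to 1.62 over 13, and that between WT stages from -3.09 to -2.43 and from -3.37 to -2.70 over 17. The difference of the KO effects, 0.09 for Mt1 and 0.12 for Mt2 with all libraries, did not keep its sign. As single libraries were left out it ran from -0.18 to 0.34 for Mt1 and from -0.17 to 0.36 for Mt2. Mt1 and Mt2 gave 0.56 and 1.05 after quantile normalization and -0.50 and -0.48 after median ratio scaling. KO ICM 1, 4 and 6 were not left out together for this difference. Without them the KO effect in the ICM was 0.68 and 0.69, against 1.17 and 1.38 at E5.5.

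Counts of calls depended more on the settings. In the ICM, 1540 genes (187 higher, 1353 lower) became 708 (357 and 351) after quantile normalization, 866 (414 and 452) after median ratio scaling, 405 (77 and 328) without KO ICM 1, 4 and 6, and 946 to 1875 with single libraries left out, lowest without WT ICM 1 and 987 without WT ICM 4. Its 12 metal handling calls became 7 after quantile normalization, 2 without KO ICM 1, 4 and 6 and 11 to 13, and the 5 antioxidant calls 2, 9, 2 and 4 to 8, with 8 without KO ICM 2. At E5.5, 2032 calls became 1205 to 2185 with single libraries left out, lowest without WT 1 and 1293 without WT 2, and the 14 metal handling and 14 antioxidant calls each 7 to 14, with 9 antioxidant calls without WT 2. Between WT stages 3388 calls (2247 higher, 1141 lower) became 2670 to 3435, and split as 1655 and 1498 after quantile normalization and 1593 and 1454 after median ratio scaling, while metal handling calls ran from 14 to 22 and antioxidant calls from 8 to 12. For the difference of effects, 827 calls (627 and 200) became 520 with a pseudocount of 0.1, 550 (312 and 238) after median ratio scaling and 458 to 1034 with single libraries left out, with 489, 496 and 458 without WT E5.5 1, WT E5.5 2 and KO E5.5 1, and quantile normalization split them as 407 and 398. Its 8 metal handling calls became 5 with a filter of 5 FPKM, after quantile normalization and after median ratio scaling, and 3 to 9 with single libraries left out, including 5 without WT E5.5 2 or KO E5.5 3, and its 5 antioxidant calls 4 to 6. Antioxidant calls split as 3 and 7 or 2 and 8 between WT stages under these scalings, and as 2 and 4 for the difference of effects after median ratio scaling. Among neighbours, Nudt21 in the ICM turned to 0.063 after median ratio scaling and Bbs2 at E5.5 to 0.034 without KO E5.5 2, with a range of -0.46 to 0.034 as single libraries were left out. The causes were not tested.

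Replicate numbers are shared between genotypes without a stated pairing. Deviations of libraries with the same number correlated at -0.13 to 0.16 in the ICM, over 0.1 in 2 of 7 pairs, and at -0.02 to 0.12 at E5.5, in 1 of 3 pairs, and not every library correlated best with its own number. With the replicate number as a block, the ICM gave 1221 calls (162 and 1059), E5.5 1950 and the WT stages 2968, and the difference of effects 578, with 5 metal handling calls in place of 8.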
